A study of Mus musculus with 4 samples.

Results

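The genes of the *Hoxa*, *Hoxb*, *Hoxc* and *Hoxd* clusters were followed in the dermis of back and belly skin. Members were all probe sets of the array to which the platform's annotation gave a single symbol of the form *Hox*, a cluster letter from a to d and a number, with the exception named in the processing section, whatever their signal. The rule gave 47 probe sets for 32 genes, among 45101 probe sets of which 34945 listed 1 gene symbol, for 18193 genes. Each probe set consists of several short probes against the same transcript, usually close to its 3′ end, and 11 of the 32 genes had several such sets. A further 3 probe sets that listed 2 *Hox* genes each were not used.

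RNA of dermal cells from C57BL/6 female mice, 10 weeks old by the labels, was hybridised to 4 arrays, 1 for each condition. The virgin array held ventral dermis of virgin mice, the dorsal array back dermis of mice at 15 days post-coitus (dpc) and the abdominal array ventral dermis at 15 dpc, each after intradermal injection of the vehicle dimethyl sulphoxide (DMSO). The PP2 array held ventral dermis at 15 dpc after injection of 1 mM PP2, an inhibitor of Src family kinases. All mice, controls included, were injected 2 times a day for 4 days, the pregnant ones from 12 dpc. Titles and design text give 15 dpc, which is used here, and the sample descriptions another day of pregnancy. The sources used here do not say how many mice an array represents. Back skin was sampled in pregnant mice only, so that the dorsal array has no virgin counterpart. No condition was replicated, so the differences below carry neither errors nor tests, and precision is limited by the number of arrays. Values are given throughout in the order virgin, dorsal, abdominal and PP2.

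Hox proteins are homeodomain transcription factors that give cells their position along the head-to-tail axis. Genes of one paralogue number descend from one ancestral gene, and the order of genes in a cluster follows the order of their expression domains, with low numbers expressed farther towards the head and high numbers towards the tail and the ends of the limbs. Skin fibroblasts are known to keep such a pattern in adult life, and so to carry a record of the site they came from.

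The 4 arrays had been scaled to a common level by the authors, and 58.4% to 59.7% of all probe sets were called present on them. Of the fibroblast markers of the labelled tissue, 8 of 8, among them *Col1a1* and *Pdgfra*, were called present on all 4 arrays. So were 7 of 8 keratinocyte, 4 of 4 macrophage and 3 of 3 endothelial genes, and 2 of 10 hair follicle genes. Presence alone therefore does not single out the dermis. Present calls were given to 31, 28, 26 and 29 of the *Hox* probe sets, most on the virgin and fewest on the abdominal array. The 3′ over 5′ signal ratio of the *Gapdh* controls, a sign of RNA integrity, was 2.51, 2.97, 1.41 and 5.84, so that the PP2 array stood highest and the abdominal array lowest. The same ratio for β-actin was 2.64, 4.14, 2.03 and 2.70. In bulk RNA, fewer cells of a type and less RNA per cell cannot be told apart.

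*Hox* transcripts up to paralogue number 10 were detected in the dermis of every condition, and none of the genes measured with a higher number was in any. At least 1 probe set was called present on at least 1 array for 24 of the 32 genes, and 1 probe set was present on all 4 arrays for 19 of them. Of the 24 genes with paralogue numbers 2 to 10, 23 were detected, and the exception was *Hoxb7*. Of the 6 genes with numbers 11 to 13 (*Hoxa11*, *Hoxa13*, *Hoxb13*, *Hoxd11*, *Hoxd12* and *Hoxd13*), which are known for the hindmost trunk, the genital region and the hands and feet, 0 were detected. Their 7 probe sets were called absent or, for *Hoxa13* on the PP2 array, marginal, at signals of up to 81.7. An absent call says that a probe set did not stand out from its mismatch controls, not that the transcript was missing. At the other end of the clusters, *Hoxb1* was not detected and *Hoxd1* was dim.

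Taken over probe sets, 24 of 47 were present on all 4 arrays (51.1%), 9 on some of them and 14 on none (29.8%). Among all probe sets with 1 gene symbol the shares were 55.7% on all 4 and 29.7% on none, so that the *Hox* probe sets as a whole were detected about as often as others. By cluster, 7 of 9 *Hoxa*, 6 of 9 *Hoxb*, 6 of 6 *Hoxc* and 5 of 8 *Hoxd* genes were detected. These shares are not alike in range. The *Hoxc* members had numbers from 4 to 10, while the other clusters included numbers 11 to 13, of which 0 were detected. Apart from the exception, 6 of the 38 *Hox* genes of the RefSeq table had no probe set with a single symbol.

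**Figure D1:**
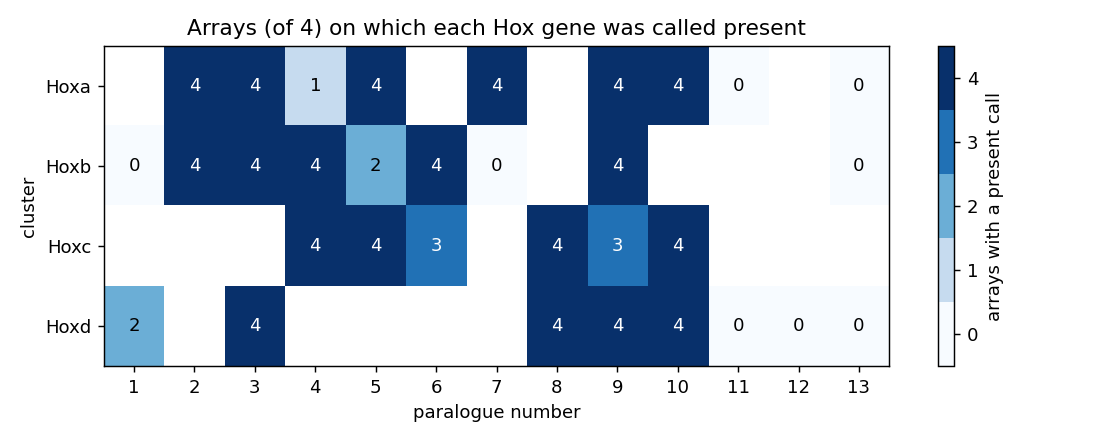
Number of arrays, of 4, on which each *Hox* gene was called present, by cluster (rows) and paralogue number (columns), taken from the gene's probe set with the most present calls. Blank fields held no probe set used here, and include numbers for which the cluster has no gene. Detected genes run from *Hoxd1* to paralogue 10, with *Hoxb1* and *Hoxb7* at 0, and the measured paralogues 11 to 13 all stand at 0.

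Another 5 genes were detected on some arrays only. *Hoxa4* was called present on the virgin array alone, at a signal of 34.1. *Hoxb5* was present on the abdominal and PP2 arrays, with a marginal call on the virgin array, at signals of 288, 261, 196 and 309. *Hoxc9*, a gene of the thoracic and lumbar trunk, was present on all but the abdominal array. *Hoxc6* was present on all but the dorsal array, where one of its 3 probe sets had a marginal call. *Hoxd1* was present on the dorsal and PP2 arrays. *Hoxc6* was thus the only one of these whose calls separated the dorsal array from the 3 ventral ones, and by a marginal call.

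To show what lies before the start sites of members that behaved differently below, 250 bases upstream of the RefSeq start site are printed for 3 genes (build GRCm38.p6, 5′ to 3′ on the strand of the gene). *Hoxa9* was lowest on the abdominal array and *Hoxa5* highest there, while *Hoxd9* was highest on the dorsal array. Capitals mark TAAT, the core that homeodomains are known to bind, on either strand, where it reads TAAT or ATTA.
Hoxa9, chr6:52227371-52227620, minus strand: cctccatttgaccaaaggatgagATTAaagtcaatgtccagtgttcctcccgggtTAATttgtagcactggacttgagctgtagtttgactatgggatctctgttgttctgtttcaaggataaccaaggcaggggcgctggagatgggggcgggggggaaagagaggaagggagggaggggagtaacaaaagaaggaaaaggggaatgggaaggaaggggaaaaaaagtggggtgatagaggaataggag
Hoxa5, chr6:52204588-52204837, minus strand: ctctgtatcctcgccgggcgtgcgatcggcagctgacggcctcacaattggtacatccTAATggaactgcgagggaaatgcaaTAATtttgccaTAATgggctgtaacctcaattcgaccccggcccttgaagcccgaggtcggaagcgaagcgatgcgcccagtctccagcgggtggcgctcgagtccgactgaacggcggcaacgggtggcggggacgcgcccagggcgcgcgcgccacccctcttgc
Hoxd9, chr2:74697513-74697762, plus strand: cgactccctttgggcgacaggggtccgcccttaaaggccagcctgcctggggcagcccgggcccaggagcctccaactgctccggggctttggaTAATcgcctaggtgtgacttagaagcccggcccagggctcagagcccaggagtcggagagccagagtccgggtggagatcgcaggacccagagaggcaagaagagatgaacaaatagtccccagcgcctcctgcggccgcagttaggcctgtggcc
The stretch before *Hoxa9* held 2 such cores, that before *Hoxa5* 3 and that before *Hoxd9* 1. Their GC content was 49.6%, 63.6% and 65.2%, and they held 3, 28 and 13 CpG dinucleotides, against medians of 52.4% and 6 over the 32851 promoter windows of the table. A promoter window was given for 19 of the 32 genes. TAAT was found in 16 of their 21 windows (76.2%) and in 54.9% of all windows of this length. The letters TGATTNAT, a site of Hox and Pbx proteins together, occurred in 2 of the 21 (*Hoxa2* and *Hoxd11*) and in 2.82% of all, and TGACAG, a Meis site, in 2 (*Hoxa2* and *Hoxa3*) and in 15.9% of all, both strands being searched. A match of letters is a description of the window and not a binding site.

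Back and belly were compared first. No *Hox* gene set the dorsal array apart from the 3 ventral ones. A probe set was counted as apart when its signal differed over 2-fold from that on each ventral array and it was called present on the brighter array or arrays. By this rule 0 of 47 probe sets were higher on the dorsal array, against 0.833% of all probe sets with 1 gene symbol, and 0 were lower, against 0.861%. Shares as small as these amount to less than 1 probe set among 47, so the count of 0 is near the background. Without the abdominal, the virgin or the PP2 array among the ventral ones, both counts stayed at 0.

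Of the 24 probe sets present on all 4 arrays, the dorsal signal lay within the range of the 3 ventral signals for 15 (62.5%), above it for 5 and below it for 4. Over all such probe sets with 1 gene symbol it lay within that range for 41.9%. The genes above it were *Hoxa7*, *Hoxb3* (by both probe sets), *Hoxb4* (by 1 of its 2) and *Hoxd9*. *Hoxd9*, a gene of the posterior trunk and hindlimb, had signals of 2242, 2485, 1748 and 1729. The dorsal signal was the highest, though only 1.11-fold above the virgin one. For *Hoxa7* the signals were 267, 343, 331 and 205, and the dorsal and abdominal arrays were 1.04-fold apart.

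*Hoxb3*, which patterns the hindbrain and neck in the embryo, had signals of 1383, 1532, 1094 and 1218 by its brighter probe set and 163, 206, 192 and 157 by the other. Both were highest on the dorsal array, but they placed the abdominal array last and next to the dorsal one, respectively. The 2 probe sets of *Hoxb4* differed more. One gave 421, 508, 435 and 469, with the dorsal array on top, and the other 217, 144, 125 and 210.4, with the virgin array on top. The genes below the ventral range were *Hoxa5* (by 1 of its 2 probe sets), *Hoxb2*, *Hoxb6* and *Hoxc5*.

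*Hoxb6* had signals of 627, 519, 569.9 and 1093, so that the dorsal array was lowest and the PP2 array stood apart from the other 3. It was the only *Hox* probe set over 2-fold lower on the dorsal than on the PP2 array (2.11-fold, 3.46% of all probe sets in that direction). *Hoxb2* had 720.0, 692, 806 and 928, and *Hoxc5* 201, 151, 186 and 255. For both, the dorsal array was lowest and the PP2 array highest.

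**Figure D2:**
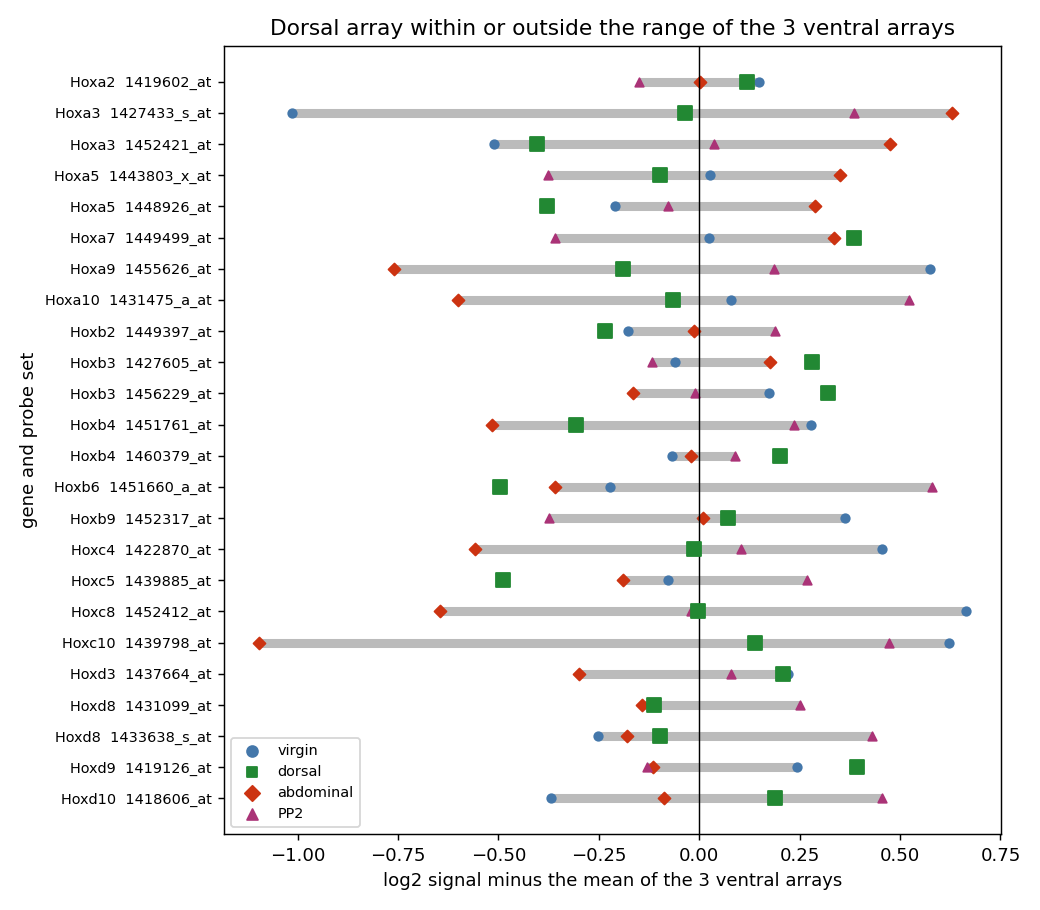
Log2 signal of the 24 *Hox* probe sets present on all 4 arrays, minus the mean of the 3 ventral arrays (virgin, abdominal, PP2); the grey bar spans the ventral arrays and green squares are the dorsal array. The dorsal array lies within the bar for 15 probe sets, above it for 5 and below it for 4.

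The abdominal array was then set against each of the others. All 3 comparisons share that array, so they are not independent of each other, and their values are given side by side. Against the dorsal array, 0 *Hox* probe sets were over 2-fold higher (background 3.69%) and 2 were lower (3.85%), *Hoxc10* and *Hoxd1*. Against the PP2 array, 0 were higher (5.34%) and 3 lower (2.3%), *Hoxa10*, *Hoxc10* and *Hoxd1*. The lower probe sets made up 4.26% and 6.38% of the 47, counts too small to set apart from the background.

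Against the virgin array, 6 *Hox* probe sets of 47 (12.8%) were over 2-fold lower on the abdominal array, where 2.72% of all probe sets with 1 gene symbol were. They belonged to *Hoxa9*, *Hoxa10*, *Hoxc4*, *Hoxc8*, *Hoxc9* and *Hoxc10*, that is to the *Hoxa* and *Hoxc* clusters, and 5 of the 6 had paralogue numbers from 8 to 10. These clusters held 16 and 10 of the 47 probe sets. Over all 4 clusters, 3 probe sets had number 8 and 9 had number 9 or 10. A single probe set, of *Hoxa3*, was over 2-fold higher (2.32%). The *Hoxb* and *Hoxd* clusters, with 11 and 10 probe sets, gave 0 calls in this comparison. At shares of 2.72% lower and 2.32% higher, a count of 0 among so few is near the background.

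*Hoxc10*, known for the lumbar trunk and hindlimb, was the one member lower on the abdominal array than on each other array by over 2-fold (0.461% of all probe sets). Its signals were 341, 244, 104 and 307, all called present. The virgin and PP2 arrays were 1.40-fold and 1.26-fold above the dorsal array. The abdominal array was 3.29-fold below the virgin, 2.35-fold below the dorsal and 2.96-fold below the PP2 array. It was called in the same way after quantile normalization and after scaling to one median.

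*Hoxc8*, a gene of the thoracic trunk, had signals of 4387, 2764, 1771 and 2730.3. The dorsal and PP2 arrays were 1.01-fold apart, the virgin array stood above them and the abdominal array below, 2.48-fold under the virgin array. The abdominal signal was 1.56-fold lower than the dorsal and 1.54-fold lower than the PP2 signal. *Hoxc9* ran in the same order at 732, 489, 299 and 414, with no present call on the abdominal array, where it was at least 2.45-fold lower than on the virgin, 1.64-fold than on the dorsal and 1.38-fold than on the PP2 array.

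*Hoxc4*, the member of the cluster active farthest towards the head, had signals of 739, 534, 366 and 579. It was 2.02-fold lower on the abdominal than on the virgin array, just past the threshold, and fell short of it with the arrays scaled to one median. *Hoxc5*, its neighbour in the cluster, was 1.08-fold lower there. The 2 other *Hoxc5* probe sets were absent everywhere at signals of at most 10.6. For *Hoxc6* the 3 probe sets gave different orders. One was present on the virgin array alone, at 221, another gave 204, 263, 245 and 151 with a marginal call on the dorsal array, and the third had no present call.

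In the *Hoxa* cluster, *Hoxa9* and *Hoxa10* were lowest on the abdominal array by their brighter probe sets, while *Hoxa5* and the 2 *Hoxa3* probe sets present there were highest on it. *Hoxa9* had signals of 1158, 681, 459 and 884 by its brighter probe set, and the abdominal array was 2.52-fold below the virgin, 1.49-fold below the dorsal and 1.93-fold below the PP2 array. Its dimmer probe set, at 303, 311, 214 and 241, was present on the virgin and dorsal arrays only. The abdominal array was lowest by both.

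*Hoxa10*, known for the lumbar region and the uterus, was measured by a brighter probe set at 165, 149, 103 and 224, which was lowest on the abdominal and highest on the PP2 array, 2.18-fold apart. Its dimmer probe set was present on the virgin array alone, at 42.4 against 18.0, 15.0 and 14.4, and so at least 2.83-fold higher there than on the abdominal array. It was the only *Hox* probe set over 2-fold higher on the virgin array than on each other one (0.361% of all probe sets), and 0 were lower there (0.283%). The brighter probe set differed by 1.11-fold between the virgin and dorsal arrays.

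*Hoxa3*, which acts in the neck and pharyngeal organs of the embryo, had 4 probe sets. One, of the kind that may match several transcripts, gave 46.5, 91.8, 145 and 123, and was 3.12-fold higher on the abdominal than on the virgin array. The brightest gave 83.7, 90.2, 166 and 122, a ratio of 1.98. Both were highest on the abdominal array and lowest on the virgin one, while the other 2 probe sets were not called present on the abdominal array. One of these, at 40.7, 68.3, 54.0 and 32.9, was 2.07-fold higher on the dorsal than on the PP2 array.

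*Hoxa5*, a gene of the neck and upper thorax that is also active in lung and mammary tissue, had signals of 676, 601, 955 and 741 by its brighter probe set and 615, 565, 769 and 465 by the other. Both were highest on the abdominal array, 1.41-fold and 1.25-fold above the virgin array. *Hoxa2*, at 128, 126, 116 and 104, varied least among the named *Hoxa* genes.

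The dim gene *Hoxd1* had signals of 13.2, 20.8, 1.19 and 24.2, with no present call on the virgin and abdominal arrays. It was at least 3.17-fold lower on the abdominal than on the dorsal array and at least 3.68-fold lower than on the PP2 array, against the dimmest signal called present on the abdominal array. Raising signals under 100 to 100 removed its calls, as it did those of the dimmer *Hoxa10* probe set and of *Hoxa3*.

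**Figure D3:**
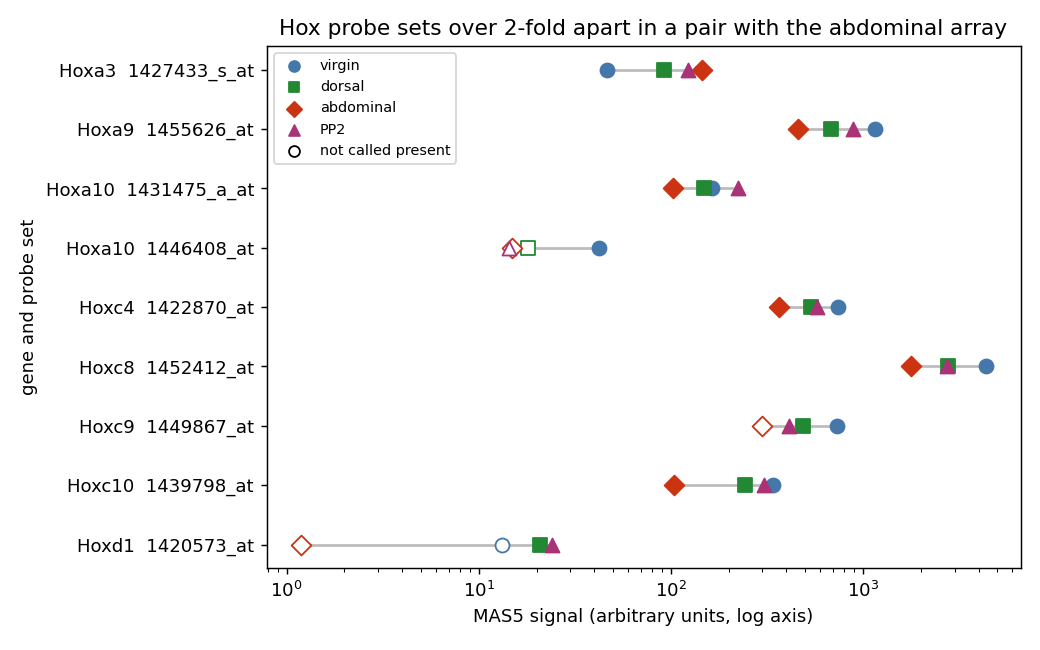
MAS5 signal (arbitrary units, log axis) of the *Hox* probe sets over 2-fold apart between the abdominal array and another array, 1 symbol per array; open symbols mark arrays without a present call. The abdominal array (red diamonds) is leftmost in 7 of the 9 rows, is within 1 unit of the lowest for the dimmer *Hoxa10* probe set and is rightmost for *Hoxa3*.

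By the same rule 0 members were higher on the abdominal array than on each other one (0.569%), and on the PP2 array 0 were higher (0.155%) and 0 lower (1.57%) than on each other one. Pairs without the abdominal array held few calls. Between the dorsal and virgin arrays 0 *Hox* probe sets were higher on the dorsal one (3.29% of all) and 1 was lower (2.86%), the dimmer one of *Hoxa10*. Between the dorsal and PP2 arrays 1 was higher on the dorsal one (6.86%), of *Hoxa3*, and 1 was lower, of *Hoxb6*. Between the PP2 and virgin arrays 1 was higher on the PP2 one (2.06%), of *Hoxa3* by 2.64-fold, and 2 were lower (5.02%), of *Hoxa10* and *Hoxc6*.

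The remaining members differed less between arrays. *Hoxd8* had signals of 1915, 1913, 1873 and 2461 by one probe set and 1221, 1358, 1285 and 1961 by the other, so that the 3 vehicle arrays were close together and the PP2 array was highest by both. *Hoxd10*, a gene of the lumbar trunk and hindlimb like *Hoxc10*, gave 454, 669, 553 and 805. Its order, with the virgin array lowest, was not that of *Hoxc10*.

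*Hoxd3* had 182, 181, 127 and 165, with the abdominal array lowest by 1.30-fold or more. *Hoxb9*, the paralogue of *Hoxa9*, *Hoxc9* and *Hoxd9*, had 509.7, 416, 399 and 306, with the PP2 array lowest. The 4 genes of paralogue number 9 therefore placed the arrays in different orders: the virgin array was highest for *Hoxb9* and *Hoxc9* and for the brighter *Hoxa9* probe set, and the dorsal array for *Hoxd9*.

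The same could be read from the clusters as a whole. Over the *Hox* probe sets present on all 4 arrays, the median log2 ratio of the abdominal over the virgin array was -1.16 for *Hoxc* (4 probe sets), 0.32 for *Hoxa* (8), -0.14 for *Hoxb* (7) and -0.03 for *Hoxd* (5), the last 0.01 when scaled to one median. Over the dorsal array the medians were -0.59, 0.20, -0.10 and -0.28, and over the PP2 array -0.64, 0.31, -0.15 and -0.39. The 8 *Hoxa* probe sets stood for 6 genes, *Hoxa3* and *Hoxa5* being counted by more than 1 each. Over the dorsal array 4 of the 8 were above 0, all of these 2 genes, and 4 were below. The positive *Hoxa* medians thus lean on these genes, and medians with 1 probe set per gene were not computed. Over all 24 the median was -0.12 against the virgin, -0.11 against the dorsal and -0.29 against the PP2 array, where all probe sets with 1 gene symbol present on all 4 arrays had 0.03 in each. Requiring a present call on all 4 arrays keeps 9 probe sets that were present on some of them out of these medians, namely 2 of *Hoxc6* and 1 each of *Hoxa3*, *Hoxa4*, *Hoxa9*, *Hoxa10*, *Hoxb5*, *Hoxc9* and *Hoxd1*.

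Split by cluster and number after the values were seen, the *Hoxa* and *Hoxc* probe sets with numbers 8 to 10 (4) had medians of -1.32, -0.61 and -1.03 against the virgin, dorsal and PP2 arrays, all 4 being below 0 in each comparison. The *Hoxb* and *Hoxd* probe sets with the same numbers (5) had -0.03 (0.01 when scaled to one median), -0.08 and -0.39. Of these 5, 3, 5 and 3 were below 0 in the same order. Against the dorsal array, all probe sets of both groups were thus below 0, so that this direction was not particular to *Hoxa* and *Hoxc*. The other medians by cluster kept their sign under both scalings, the only alternatives tried for them. Spearman's rho of the paralogue number with the log2 ratio was -0.35, -0.39 and -0.42 over the 24 probe sets, in the same order. With 1 probe set for each of the 19 genes it was -0.36, -0.43 and -0.45. These are descriptions over probe sets that share the same 4 arrays, and the 3 values share the abdominal one. In the pairs that leave the abdominal array out, rho over the 24 probe sets was -0.23 for the dorsal over the virgin, -0.06 for the dorsal over the PP2 and -0.12 for the PP2 over the virgin array.

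**Figure D4:**
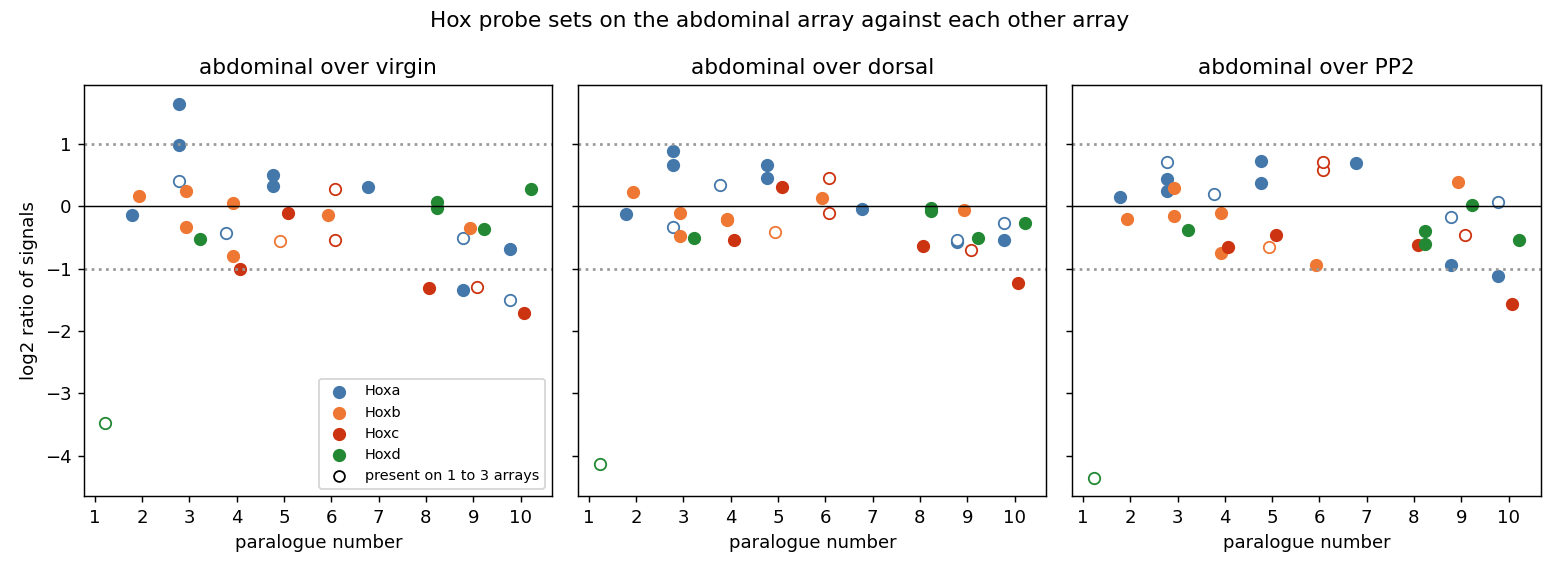
Log2 ratio of the abdominal over the virgin (left), dorsal (middle) and PP2 array (right) for each *Hox* probe set present on at least 1 array, by paralogue number; colours are clusters, open circles were not present on all 4 arrays and dotted lines mark 2-fold. Points of *Hoxc* and *Hoxa* at numbers 8 to 10 lie below 0 against the virgin array, *Hoxa3* and *Hoxa5* lie above it, and the lowest point in each panel is *Hoxd1*, drawn from an abdominal signal of 1.19 that was not called present, so that its depth is not a measured value.

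Counted by order alone, a choice made after seeing the data, the abdominal array was the lowest of the 4 for 9 of the 24 probe sets (37.5%), against 18.5% of all probe sets present on all 4 arrays. It was the highest for 4 (16.7%, against 22.9%), which were those of *Hoxa3* and *Hoxa5*. The virgin array was the highest for 8 (33.3%, against 20.3%) and the PP2 array for 7 (29.2%, against 28.2%). The count of 9 was also 9 with one median and with quantile normalization, where *Hoxd9* took the place of *Hoxd8* under one median, and without the PP2 array it was 12 (50.0%, against 31.1%). The spread was not unusual: the median log2 range over the 4 arrays was 0.74 for the *Hox* probe sets and 0.66 for all those of like signal that were present on all 4.

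Hox proteins bind DNA together with TALE homeodomain proteins, of the Pbx, Meis and Pknox families, and these cofactors were examined next. Of 9 genes listed, 8 were measured and 7 were called present on at least 1 array. By the probe set with the highest mean signal, 0 were over 2-fold higher on the abdominal array in any of the 3 pairs, while 2 were lower than on the virgin, 1 than on the dorsal and 2 than on the PP2 array. Among all 18193 genes, taken in the same way, 2.49%, 3.49% and 2.66% were lower and 2.39%, 3.7% and 3.48% higher.

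By these probe sets, the lower genes were *Meis1* and *Meis2*. *Meis2* had signals of 1254, 1609, 563 and 2051, so that the abdominal array was 2.23-fold, 2.86-fold and 3.64-fold below the virgin, dorsal and PP2 arrays. *Meis1* had 871, 703, 361 and 799, and the abdominal array was 2.41-fold, 1.94-fold and 2.21-fold below. All 4 probe sets of *Meis2* and all 3 of *Meis1* were lowest on the abdominal array, also under both other scalings.

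*Pbx2*, at 766, 757, 784 and 722, was nearly level over the 4 arrays. *Pbx3* had 928, 1392, 766 and 1040.0 and was lowest on the abdominal array, with the dorsal array 1.82-fold higher. *Pknox1* had 974, 862, 675 and 703. The probe sets of *Pknox1* disagreed, since the other 2 were highest on the abdominal array and over 2-fold above the PP2 array. Among all 20 probe sets of the list, 5 were lower than on the virgin (2.72% of all probe sets), dorsal (3.85%) and PP2 array (2.3%) each. They were of *Meis1* and *Meis2*, except a dim one of *Pknox2* against the dorsal array. It had 9.46, 56.9, 3.09 and 6.24, present on the dorsal array only. The brighter *Pknox2* probe set had 59.3, 173, 93.4 and 118.

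**Figure D5:**
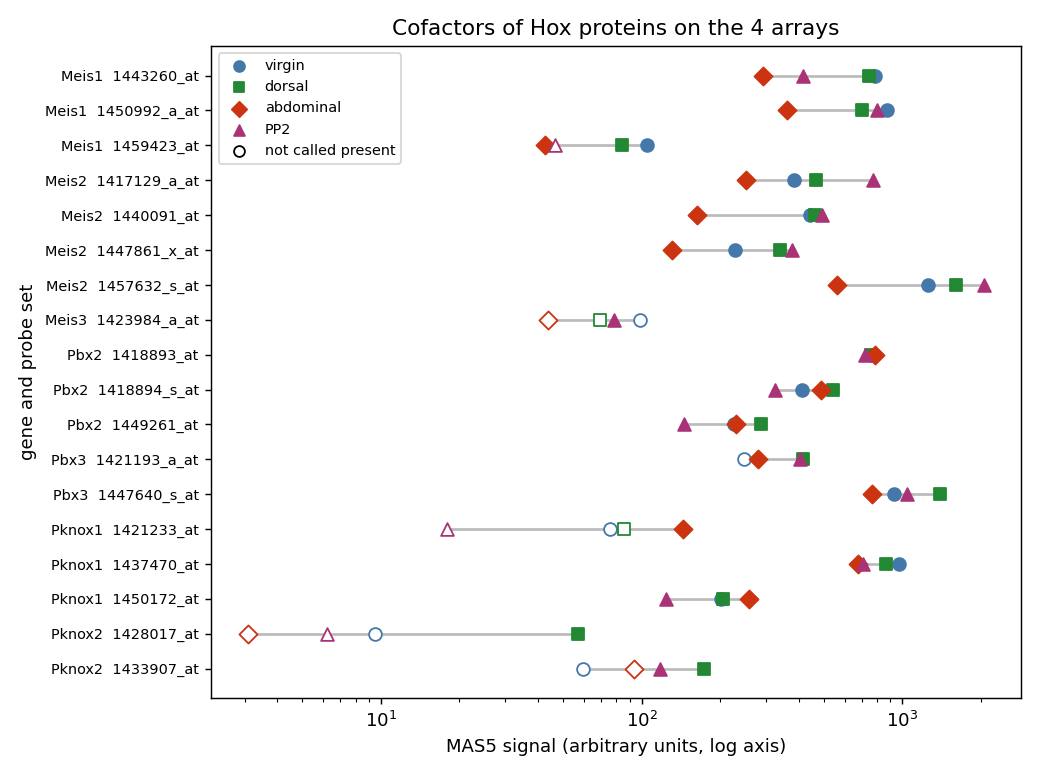
MAS5 signal (arbitrary units, log axis) of each probe set of the Meis, Pbx and Pknox genes called present on at least 1 array, 1 symbol per array; open symbols mark arrays without a present call. The abdominal array (red diamonds) is leftmost for the 3 *Meis1* and 4 *Meis2* probe sets, and lies among the others or to their right for *Pbx2*.

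Polycomb and trithorax proteins keep *Hox* genes silent or active through cell divisions. Of 21 such genes measured, all of them detected, 0 were over 2-fold higher or lower on the abdominal array in any of the 3 pairs by the brightest probe set of each gene. Among all 52 of their probe sets, 5 dimmer ones were lower than on the dorsal array (3.85% of all probe sets with 1 gene symbol). They were of *Ezh1*, *Kdm6a*, *Kdm6b*, *Pcgf2* and *Rnf2*. Higher than on the PP2 array were 3 (5.34% of all), 1 of *Kdm6b* and 2 of *Suz12*. These counts are too small to set apart from the background. The genes that flank the clusters gave the same counts by their brightest probe sets: of 14 measured and 9 detected, 0 were higher and 0 lower. Dimmer ones, among 29 in all, were higher than on the PP2 array for *Cbx5*, *Hnrnpa1* and *Skap2*, higher than on the virgin array for *Cbx5*, and higher than on the dorsal array for *Skap2* and lower for *Calcoco1*. Of the flanking genes, *Evx1* and *Evx2*, homeobox genes beside the posterior ends of *Hoxa* and *Hoxd*, were absent on all arrays.

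Retinoic acid induces *Hox* genes in the embryo, and its enzymes and binding proteins went different ways. Of 13 retinoid and Cdx genes measured and 9 detected, 3 were over 2-fold higher and 2 lower on the abdominal than on the virgin array, 1 and 2 against the dorsal array, and 2 and 3 against the PP2 array, to be read beside the shares of 2.39% to 3.7% higher and 2.49% to 3.49% lower given above for all genes. *Aldh1a3*, an enzyme that makes retinoic acid, had signals of 362, 949, 156 and 677, lowest on the abdominal array, while *Aldh1a1*, another such enzyme, had 435, 668, 1164 and 515, highest there. *Crabp1*, which binds retinoic acid in the cell, had 18584, 3186, 3586 and 10496, and the dorsal and abdominal arrays lay close together below the other pair. *Crabp2* had 1105, 1853, 613 and 1489.8. Dim members made up the rest of the higher counts: *Cdx4*, at 1.76, 5.70, 21.2 and 7.08, was called present on the abdominal array alone, and *Rarb*, a retinoic acid receptor, had 26.8, 33.3, 61.6 and 78.1.

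Other transcription factors of body position were taken beside them. Of 13 measured and 8 detected, 1 was over 2-fold higher and 2 lower on the abdominal than on the virgin array, 2 and 1 against the dorsal array, and 1 and 3 against the PP2 array, beside the same shares of all genes. *Zic1*, a zinc finger factor of the neural tube and somites, was the one higher in each pair, at 34.3, 85.8, 2308 and 30.0. *Emx2* had 196, 107, 269 and 153, lowest on the dorsal array and 2.51-fold higher on the abdominal one. *En1*, which marks ventral ectoderm in the limb bud and a lineage of back skin fibroblasts, had signals of 75.5, 91.3, 26.7 and 42.1. The dorsal array was highest, next to the virgin one. *Prrx1*, a marker of limb and ventral body wall mesenchyme, had 3039, 2097, 1585 and 3239, *Tbx18* 449, 298, 216 and 597, and *Tbx15*, which sets the dorsal and ventral coat pattern of mice, 780.2, 832, 638 and 1421. By these, the brightest probe sets, all 3 were lowest on the abdominal and highest on the PP2 array. Other probe sets differed in that 3 of *Prrx1* and 1 of *Tbx18* called present were highest on the virgin array. *Tbx2*, at 379, 950.3, 517 and 531, and *Tbx3*, at 1137, 1279.7, 719 and 1198, were highest on the dorsal array.

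Markers of cell types differed between the same arrays. The summed signal of 10 hair follicle genes was 469, 793, 15875 and 2001, with 3, 2, 10 and 5 of them called present, so that the abdominal array, lowest for *Hoxc10*, *Hoxc8*, *Meis1* and *Meis2*, was highest for these. The sum of 7 dermal papilla genes was 24553, 12884, 7314 and 17752, lowest on the abdominal array, with *Crabp1* its largest term on the virgin one. Single members did not all follow the sum: 4 of the 7 had more signal on the abdominal than on the dorsal array, *Crabp1* among them, and 0 were over 2-fold higher and 3 lower there. The sum of 8 keratinocyte genes was 52707, 94792, 69010 and 39101, highest on the dorsal array. The sum of 8 fibroblast genes was 143878, 116098, 132154 and 113020, so that the abdominal array lay between the virgin array and the other 2. By member, 5 of the 8 had less signal on the abdominal than on the virgin array and 3 had more. Against the dorsal array 2 had less and 6 more, and against the PP2 array 3 had less and 5 more. The part of the hair follicle, dermal papilla, keratinocyte and fibroblast cells in the *Hox* differences was not tested.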

How the data were processed

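Gene expression was measured in dermal cells under 4 conditions, with 1 array per condition. The authors deposited a signal and a detection call for each probe set, both made with the MAS5 algorithm (Affymetrix Expression Console, version 1 in the submitters' processing notes). The deposited signal is an intensity on a linear scale that combines the probes of a set and is scaled to a common trimmed mean per array. This scaling fixes the mean of each array, so that ratios are relative to it. The deposited table of all arrays differed from the single tables in 0 rows (tolerance 0.01%), and 0 columns lacked a sample. Conditions came from the sample titles.

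Symbols came from the platform annotation, and 47 of 47 members matched the RefSeq table of GRCm38.p6 with 0 symbols changed. A member of the *Hoxc* cluster is not reported here. Control probe sets were left out. Counts took a ratio over 2 with a present call on the brighter array, or on all 3 ventral arrays for a lower dorsal signal. If a probe set lacked a present call on the dimmer array, its fold used the larger of its own signal and the dimmest present signal of that array. Each gene of the other lists was represented by its brightest probe set (mean of log2 values computed from the deposited signals), and pathway members over 2-fold apart were named first. No p-value was computed. The members and lists were chosen with earlier results of these data known. The counting rule was tested on simulated data. Alternatives were 2 other scalings, 1.5-fold, no detection filter, a floor of 100, 1 probe set per gene, no probe sets ending in _s_at or _x_at, the table of all arrays, and leaving out a ventral array. The rules that set the abdominal array against all others, and those by order alone, were added after seeing the data. Python 3.11.15, numpy 2.4.6, pandas 2.3.3, scipy 1.17.1 and matplotlib 3.10.9 were used.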

Additional observations from a re-analysis of the deposited data

How the results depend on the processing

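Of 70 counts of *Hox* probe sets under the alternatives, 50 were within 1.5 times the reported ones and 20 were not. Part of the 50 was fixed in advance. The table of all arrays held the same values, so its counts had to match. The floor and the settings that drop probe sets could only keep or lower a count, so a count of 0 had to stay. With the arrays scaled to one median, 2 were higher on the abdominal than on the virgin array and 5 lower than on the PP2 array, *Hoxa9* and *Hoxb6* being added. With quantile normalization, 1 was higher on the abdominal than on the dorsal and 2 than on the virgin array, all of *Hoxa3*. At 1.5-fold, the abdominal array had 3 higher and 4 lower than the dorsal, 2 higher than the virgin, and 3 higher and 10 lower than the PP2 array. With no detection filter, 1 was higher on the dorsal than on all ventral arrays (*Hoxd12*, absent on each), and the abdominal array had 5 higher and 5 lower than the dorsal, 4 higher and 10 lower than the virgin, and 5 higher and 5 lower than the PP2 array. With signals under 100 raised to 100, 1 was lower than on the dorsal array, and 0 were higher than on the virgin array. That last count was also 0 with 1 probe set per gene and without probe sets ending in _s_at or _x_at, the one called being of the kind left out. The cause of the other shifts was not tested. The share of all probe sets was not computed under the alternatives. These counts and those below therefore have no background beside them and show only how the counts depend on the processing.

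The count lower than on the virgin array stayed between 5 and 8 under the other alternatives, with *Hoxa9*, *Hoxc8*, *Hoxc9* and *Hoxc10* in each. Of 36 log2 ratios of the called probe sets, 31 kept their call, 5 lost it and 0 changed direction: *Hoxc4* came to -0.97 against the virgin array with one median, and *Hoxa3* (0.54), the dimmer *Hoxa10* and *Hoxd1*, in both its pairs, lost theirs with the floor of 100. For probe sets present on both arrays, the abdominal over PP2 median was 0.04 on the log2 scale as deposited and -0.07 with one median. No paired analysis was possible because each condition has 1 array. Dim members such as *Hoxd1* and *Hoxa4* lie near the limit of detection, where 1 array per condition gives no measure of spread.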
